A study of Mus musculus with 12 samples.

Results

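Genes of the fetal and stress programme of heart muscle were followed in the ventricular apex of adult mice: Nppa, Nppb, Myh7, Acta1, Ankrd1 and Gdf15. These 6 genes were taken by symbol from the 23457 rows of a table of read counts, and all 6 were among the 13050 genes that passed the filter on low counts. The hearts, on the C57BL/6J background, formed a pair of groups, 6 Parkin KO hearts and 6 noninduced hearts. Parkin KO hearts came from floxed mice that carried MerCreMer, a Cre recombinase switched on by tamoxifen, and in which, by the labels, Parkin had been deleted in the adult heart. Noninduced hearts came from floxed mice without Cre. All 12 samples carry the same time label, 9 to 10 weeks after tamoxifen. Adult is the only age given, the driver of the transgene is not given in the sources used here, and Parkin loss cannot be told apart from the presence of MerCreMer.

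Before birth the ventricle makes a set of contractile proteins and peptides that it largely gives up afterwards, and an overloaded or injured adult ventricle takes them up again. Myh7 encodes the slow beta myosin heavy chain, which in the adult mouse ventricle is mostly replaced by the alpha chain of Myh6, and Acta1 encodes skeletal alpha-actin, whose adult cardiac counterpart is Actc1. Nppa and Nppb encode the precursors of atrial and brain natriuretic peptide, hormones that promote salt excretion and relax vessels. Ankrd1 encodes a stretch-responsive repressor that shuttles between the titin spring and the nucleus, and Gdf15 encodes a secreted stress cytokine of the TGF-beta superfamily. Together they are commonly read as a gauge of strain on heart muscle.

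None of the 6 genes passed the test between Parkin KO and noninduced hearts (edgeR quasi-likelihood test, adjusted p = 0.432 to 0.804), in a comparison where 0 of 13050 genes passed (0%) and 1483 had an unadjusted p under 0.05 (11.4%). All 6 showed overlapping groups, against 45 genes over the whole table whose groups did not overlap (0.345%). Their spread between hearts of the same group was wide, at the 98.2 to 99.9 percentile of all tested genes. One noninduced heart, replicate 6, had the highest level of all 6 genes among the 12 hearts, and Parkin KO 1 had the second highest of 4 of them, Nppb, Acta1, Ankrd1 and Gdf15. Over all tested genes noninduced 6 was the highest library for 12.4% and the lowest for 13.7%.

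**Figure D1:**
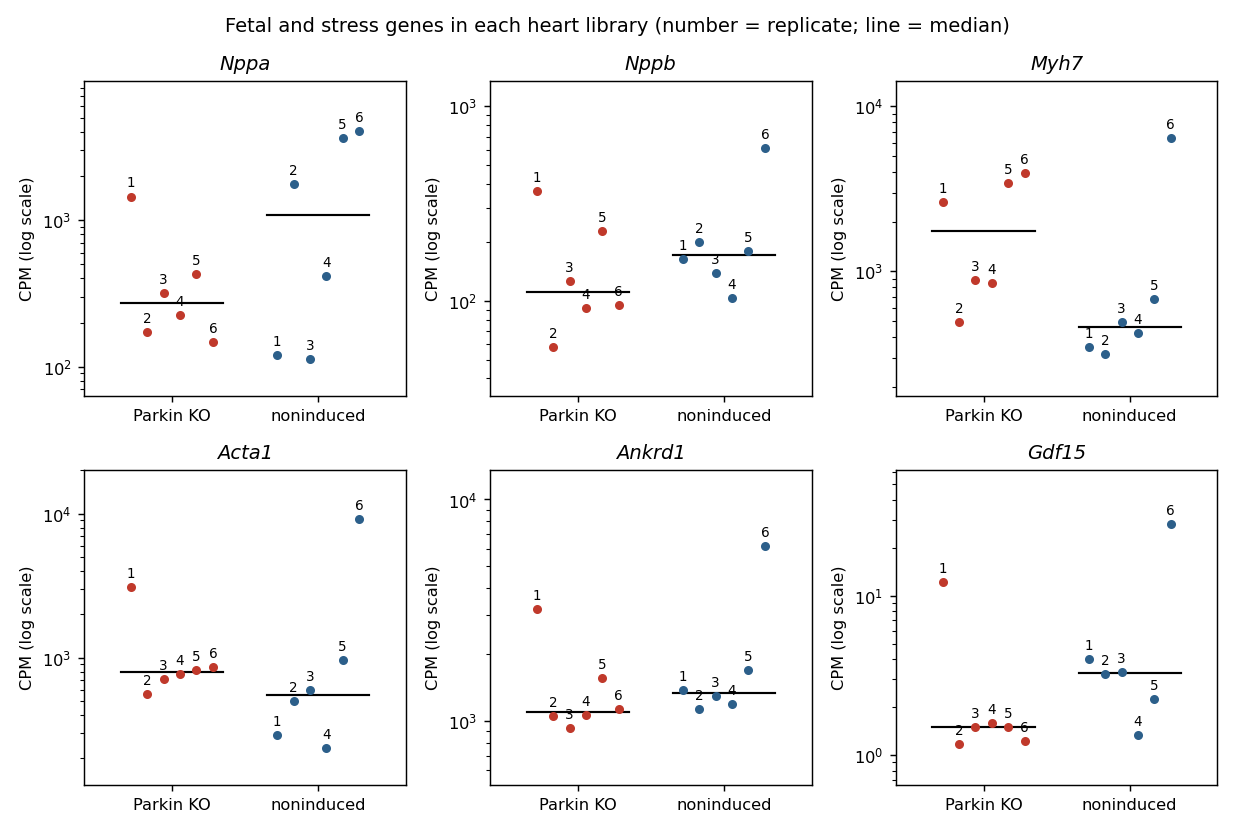
CPM, the read count scaled to a common library size, of each of the 6 genes (log axis) in every library, Parkin KO left and noninduced right; points are hearts numbered by replicate and lines are group medians. Noninduced 6 is the top point in all 6 panels, for example 9170 CPM of Acta1 and 28 CPM of Gdf15, and Parkin KO 1 is the top Parkin KO heart for Nppa, Nppb, Acta1, Ankrd1 and Gdf15.

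The libraries were deep and alike as a whole, with 11610507 to 16884516 counts each and rank correlations of 0.967 to 0.991 between them. Defining genes of ventricular muscle (Myl2, Myl3 and Irx4) summed to 12200 to 13300 CPM in Parkin KO, against 9230 to 13700 CPM in noninduced hearts. The counts of the Parkin gene did not separate the groups. They were 25, 45, 36, 44, 30 and 24 in Parkin KO 1 to 6, against 24, 34, 31, 29, 39 and 45 in noninduced 1 to 6, and the log2 fold change was -0.05 ± 0.208 (SE, edgeR adjusted p = 0.93). The sources used here do not give the floxed part of the gene, and reads from the rest of the transcript would still be counted, so the loss of Parkin is taken from the labels and was not shown by these counts. Every direction below is between libraries labelled Parkin KO and libraries labelled noninduced. Several libraries stood apart or went against their labels. Parkin KO libraries held 1550 to 4680 CPM of Esr1, on which reads of MerCreMer can be counted. The libraries labelled noninduced 1 and noninduced 3 held 558 and 962 CPM of it, and the other 4 noninduced libraries 24.0 to 64.9 CPM. Noninduced 2 and 5 held high levels of genes of atrial muscle. Parkin KO 2, 5 and 6 were male by Xist and Y-linked genes, Parkin KO 1, 3 and 4 and 5 noninduced libraries were female, and the library labelled noninduced 3 held reads of both kinds. Labels were kept throughout. Fold changes of the 6 genes, the ratios and the counts of gene lists were recomputed without such libraries, and values that moved a result are given beside it or among the alternatives. The counts of gene lists were not recomputed by sex. Nothing in the labels says how hearts were paired or whether they came from 1 litter, and whole heart is named as the tissue beside a protocol that froze the apex.

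In the 250 bases before each RefSeq transcription start, 5 of the 6 genes, all but Nppa, held an M-CAT element, the letters CATTCC on either strand, to which TEAD factors bind. Of the 27025 mouse genes in the RefSeq promoter table (GRCm38.p6), 14.4% held it in such a window. Ankrd1 held 2 copies, Gdf15 held it in 1 of its 2 start windows, and Myh7 also held it in 1 of 2. The RefSeq starts differ from the GENCODE gene positions given below. By GENCODE the copies of Nppb, Ankrd1 and Gdf15 lay inside the gene, and only those of Myh7 and Acta1 lay before it. Stretches of 30 bases around each copy are shown 5′ to 3′ on the gene's own strand so that the flanks can be compared, with the element in capitals, where GGAATG is the element read on the other strand.
Nppb, chr4:147985783-147985812, plus strand: gctcagccggcaGGAATGcagctgataaat
Myh7, chr14:54994810-54994839, minus strand: ctagtgagccgtGGAATGttagagatattt
Acta1, chr8:123894804-123894833, minus strand: gaagggcagcaaCATTCCttcggggcggtg
Ankrd1, chr19:36120037-36120066, minus strand: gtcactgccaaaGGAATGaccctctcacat
Ankrd1, chr19:36119950-36119979, minus strand: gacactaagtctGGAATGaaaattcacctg
Gdf15, chr8:70632215-70632244, minus strand: tcctcttccctcCATTCCcaagaggaaccc
The copies lay at different distances from the start, from 46 bases upstream in Acta1 to 210 bases in Ankrd1, and in both orientations. Other elements were held by fewer of the 6 genes. The letters TGATAA, which zinc finger factors such as Gata4 bind, stood on either strand before the RefSeq starts of Nppa and Nppb (9.21% of all genes), and the related letters AGATAA stood before those of Nppb and Ankrd1 (11.4%). In Nppb and Ankrd1 these sites too lay inside the gene by GENCODE. A CArG box, the site of serum response factor, stood before Acta1 alone (1.62% of all genes). The Nppa and Acta1 windows are printed whole, since the first is the one without an M-CAT element and the second carries an M-CAT element and a CArG box side by side, each in capitals.
Nppa, chr4:148000472-148000721, plus strand: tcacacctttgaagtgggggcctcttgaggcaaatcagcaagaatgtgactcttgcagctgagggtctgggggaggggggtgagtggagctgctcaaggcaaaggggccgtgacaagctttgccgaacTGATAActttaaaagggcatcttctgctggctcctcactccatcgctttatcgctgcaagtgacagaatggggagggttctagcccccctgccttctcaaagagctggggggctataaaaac
Acta1, chr8:123894776-123895025, minus strand: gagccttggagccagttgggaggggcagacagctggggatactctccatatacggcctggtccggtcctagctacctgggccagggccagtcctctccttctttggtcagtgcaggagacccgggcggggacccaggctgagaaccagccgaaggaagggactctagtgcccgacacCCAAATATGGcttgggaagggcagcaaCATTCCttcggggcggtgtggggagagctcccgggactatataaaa
In the Nppa window the capitals mark the GATA site, 122 bases upstream. In the Acta1 window they mark the CArG box, 73 bases upstream, followed by the M-CAT element. Matches are a description of the letters only, since binding was not measured. Of the factors, Tead1 stood at 262 ± 44.1 CPM in Parkin KO, against 319 ± 54.0 CPM in noninduced hearts, and Srf at 228 ± 17.2 CPM in Parkin KO, against 281 ± 59.2 CPM in noninduced hearts (SD, n = 6 each, edgeR adjusted p = 0.435 and 0.424). These 2 factors were picked for naming after their values were seen.

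Natriuretic peptides come first among the products that leave the cell. Nppa had 1450, 171, 318, 226, 427 and 147 CPM in Parkin KO 1 to 6, against 120, 1770, 113, 414, 3610 and 4050 CPM in noninduced 1 to 6. Only 1 Parkin KO heart passed 1000 CPM and 3 noninduced hearts did, while the 2 lowest of all 12 hearts, noninduced 1 and 3, were also noninduced, so the groups overlapped over their whole Parkin KO range. The log2 fold change was -1.88 ± 0.849 (SE, 95% interval -3.69 to -0.0682), with an unadjusted p of 0.0429 in the edgeR quasi-likelihood test that did not hold after adjustment over all genes (adjusted p = 0.432). With limma-voom the log2 fold change was -1.16 and with limma on FPKM it was -1.15 (unadjusted p = 0.211 and 0.252, adjusted p = 0.611 and 0.644). Nppa was the most variable of the 6, at the 99.9 percentile of all tested genes for its spread within groups.

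Nppa is also the peptide of atrial muscle, and the 3 noninduced hearts high in it differed in their other atrial genes. The 6 atrial markers (Myl7, Myl4, Sln, Bmp10, Dkk3 and Kcnj3, all 6 detected in every library) summed to 34.3 to 127 CPM in Parkin KO hearts (median 62.8), against 42.5 to 2450 CPM in noninduced hearts (median 178). Noninduced 5 and 2 stood at 2450 and 1640 CPM, with the atrial light chain Myl7 at 1110 and 760 CPM. Noninduced 4 stood at 270 CPM, above every Parkin KO heart, and was kept when noninduced 2 and 5 were left out. Noninduced 6 had the most Nppa of all and the lowest summed level of its group, 42.5 CPM, with Myl7 at 1.37 CPM and Sln, a regulator of the atrial calcium pump, at 0.164 CPM. In bulk tissue fewer cells of a type and less RNA per cell cannot be told apart, and the part of atrial tissue in the Nppa levels was not tested. Without noninduced 2 and 5 the log2 fold change of Nppa was -1.36 (edgeR adjusted p = 0.693), and without the libraries labelled noninduced 1 and 3 it was -2.45 (adjusted p = 0.459).

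**Figure D2:**
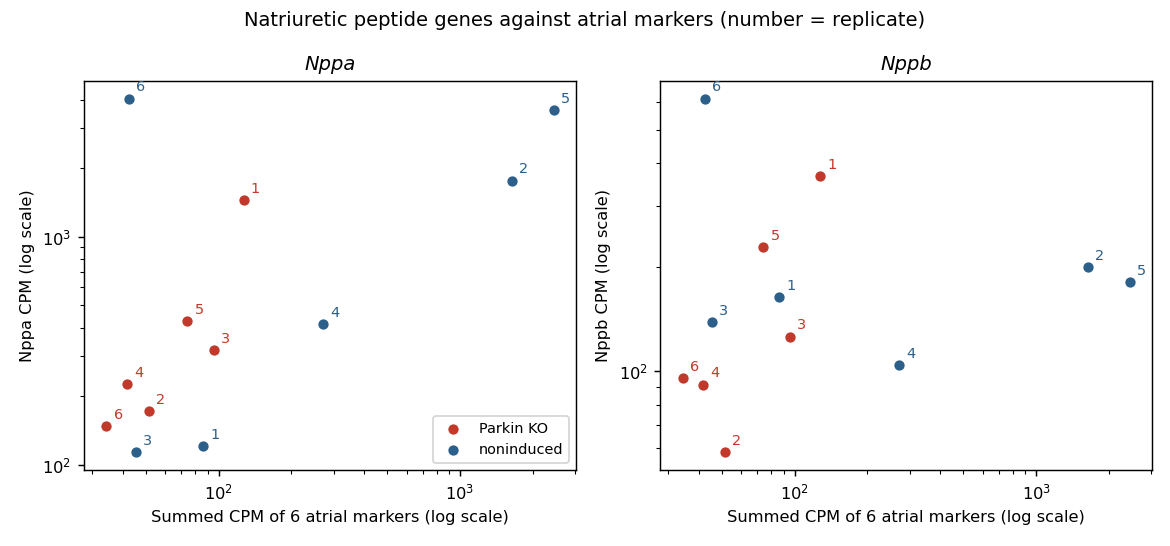
CPM of Nppa (left) and Nppb (right) against the summed CPM of 6 atrial markers in each library, both axes logarithmic; red points are Parkin KO and blue points noninduced hearts, numbered by replicate. Noninduced 2 and 5 lie far to the right and high for Nppa (1770 and 3610 CPM) but within the other hearts for Nppb (200 and 181 CPM), and noninduced 6 lies at the top left of both panels.

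Nppb, which lies on chromosome 4 from 147985788 to 147987205 of GRCm38 with Nppa next to it from 148000722 to 148002079, both on the plus strand, followed only part of that pattern. Nppb had 366, 58.3, 126, 91.6, 229 and 95.6 CPM in Parkin KO 1 to 6, against 164, 200, 139, 104, 181 and 614 CPM in noninduced 1 to 6. The highest heart was again noninduced 6 and the second Parkin KO 1, while noninduced 2 and 5, rich in atrial genes, stood near the other noninduced hearts. Its log2 fold change was -0.54 ± 0.47 (SE, 95% interval -1.54 to 0.465, edgeR adjusted p = 0.633), and without noninduced 6 it was 0.02 (adjusted p = 0.982).

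The ratio of Nppa to Nppb varied more among noninduced than among Parkin KO hearts. Noninduced 6, low in atrial markers, lay on the same side as noninduced 2 and 5, which were rich in them. It was 3.96, 2.93, 2.52, 2.46, 1.87 and 1.54 in Parkin KO 1 to 6, against 0.73, 8.87, 0.815, 3.97, 19.9 and 6.6 in noninduced 1 to 6. Parkin KO hearts lay in a narrow band, and noninduced hearts lay both below it, in the libraries labelled noninduced 1 and 3, and above it in noninduced 2, 5 and 6, with noninduced 4 at its upper edge. On the log2 scale the mean was 1.28 ± 0.481 in Parkin KO and 1.90 ± 1.92 in noninduced hearts (SD, n = 6 each), a difference of -0.622 (exact two-sided permutation test over 924 splits, p = 0.446, adjusted over 3 ratios p = 0.987, the smallest possible p being 0.00216). Without the libraries labelled noninduced 1 and 3, the lowest of all in this ratio, the difference was -1.76 (exact permutation p = 0.00476, adjusted p = 0.0143). Fewer splits exist there, and that p is the smallest they allow. Without noninduced 2 and 5 the difference was 0.292 (exact permutation adjusted p = 0.833). On leaving out 1 library at a time, the adjusted p of the same test ran from 0.506 to 0.983. So the call and the direction of this ratio both rested on which noninduced hearts were kept. Exons of an antisense noncoding gene cover 61.5% of the Nppa exon bases, and without strand their reads cannot be told apart.

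The wider natriuretic peptide system showed little of this. Of 12 listed genes for receptors, processing and degradation, 11 were tested, 0 passed, and 1 in each direction had an unadjusted p under 0.05, against 5.82% (higher) and 5.54% (lower) of all tested genes, and their median log2 fold change was -0.0995 beside 0.0098 over all genes. Pde9a, a phosphodiesterase that breaks down cyclic GMP made in response to these peptides, averaged 4.55 ± 0.986 CPM in Parkin KO, against 6.77 ± 1.2 CPM in noninduced hearts (SD, n = 6 each, edgeR adjusted p = 0.417). Prkg1, the kinase that cyclic GMP activates, averaged 13.97 ± 2.4 CPM in Parkin KO, against 10.8 ± 1.68 CPM in noninduced hearts (adjusted p = 0.424). The receptor Npr1, which makes cyclic GMP when either peptide binds, ranged only from 33.4 to 50.1 CPM in Parkin KO, against 38.5 to 51.3 CPM in noninduced hearts. Its relative Npr2 ranged from 85.2 to 97.5 CPM in Parkin KO, against 86.3 to 111 CPM in noninduced hearts. Npr1 and Npr2 were picked for naming after their values were seen.

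Myh7, the fetal myosin, was higher in 5 of 6 Parkin KO hearts than in 5 of 6 noninduced hearts. Lying on chromosome 14 from 54970684 to 54994626 on the minus strand, it had 2640, 494, 893, 856, 3430 and 3920 CPM in Parkin KO 1 to 6, against 347, 316, 495, 422, 680 and 6460 CPM in noninduced 1 to 6. Medians were 1770 CPM in Parkin KO, against 458 CPM in noninduced hearts, but noninduced 6 was the highest of all and Parkin KO 2 lay among the noninduced hearts. The log2 fold change was 0.49 ± 0.77 (SE, 95% interval -1.16 to 2.13, edgeR adjusted p = 0.804). Without noninduced 6 it was 2.16, with an unadjusted p of 0.000501 and an adjusted p of 0.297, which did not pass (range over leaving out each library 0.297 to 0.954).

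Sex was spread unevenly over the hearts. The Parkin KO hearts of highest Myh7, replicates 6 and 5, were male, and the third male, Parkin KO 2, had the lowest level of its group at 494 CPM. Among female hearts Parkin KO 1, 3 and 4 had 2640, 893 and 856 CPM, against 347, 316, 422, 680 and 6460 CPM in noninduced hearts. With a sex term, and with noninduced 3 left out as mixed, Parkin KO and noninduced hearts differed by -0.17 on the log2 scale (edgeR adjusted p = 0.978). Apart from the mixed library, no noninduced heart was male, so the sex term left the comparison of female hearts. Among these, noninduced 6 lay above all Parkin KO hearts and the other noninduced hearts lay below them. Without the libraries labelled noninduced 1 and 3, on the same scale, the difference was 0.03 (edgeR adjusted p = 0.994).

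The adult partner, Myh6, ran the other way in the heart of highest Myh7. Myh6 had 37000, 42300, 49700, 47300, 34500 and 40900 CPM in Parkin KO 1 to 6, against 32300, 32200, 38000, 43700, 32900 and 22400 CPM in noninduced 1 to 6, the lowest value being that of noninduced 6. Its log2 fold change was 0.32 ± 0.167 (SE, edgeR adjusted p = 0.451). As a share of the sum of both genes' counts, Myh7 made up 6.67%, 1.15%, 1.77%, 1.78%, 9.03% and 8.74% in Parkin KO 1 to 6, against 1.06%, 0.972%, 1.29%, 0.955%, 2.03% and 22.4% in noninduced 1 to 6. The alpha chain therefore dominated in all 12 hearts, and on counts the beta chain passed 5% in 3 Parkin KO hearts and 1 noninduced heart. Means were 4.86 ± 3.70% in Parkin KO and 4.79 ± 8.65% in noninduced hearts (SD, n = 6 each), a difference of 0.0692 percentage points (exact two-sided permutation p = 0.987, adjusted over 3 ratios p = 0.987). It was 3.60 points without noninduced 6 (adjusted p = 0.185) and -0.765 to 0.81 points without any 1 other library.

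The Myh7 levels depended on the scale. Between the highest and lowest heart, Myh7 differed 20.4-fold in CPM but only 2.94-fold in the deposited FPKM values, while the other 5 genes differed by like factors on both scales (Acta1 38.9 and 38.8, Nppa 35.8 and 41.0). In FPKM, Myh7 stood at 1420, 1070, 1560, 1450, 1840 and 2110 in Parkin KO 1 to 6, against 718, 738, 966, 1210, 1040 and 2070 in noninduced 1 to 6. Here too noninduced 6 was the highest noninduced heart, but Parkin KO 6 was the highest of all. As a share of the FPKM of both genes, Myh7 made up 16.8%, 12.3%, 20.9% and 20.4% in Parkin KO 1, 2, 5 and 6, against 11.8%, 11.8%, 12.2%, 12.4%, 13.5% and 30.4% in noninduced 1 to 6, Myh6 being listed at 0 FPKM in Parkin KO 3 and 4. All 10 hearts thus passed 5% on this scale, and the groups differed by 2.25 points (exact two-sided permutation p = 0.676, adjusted over 3 ratios p = 0.967). The log2 difference on FPKM with 1 added was 0.55 (limma adjusted p = 0.529). Of all 50-base windows of the Myh7 transcript, 22.2% occur unchanged in Myh6 (15.3% at 75 bases), and how reads that fit both were treated is not given in the sources used here. Antisense noncoding genes, Mhrt among them, cover 13.3% of its exon bases. The size of the Myh7 differences is therefore uncertain.

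**Figure D3:**
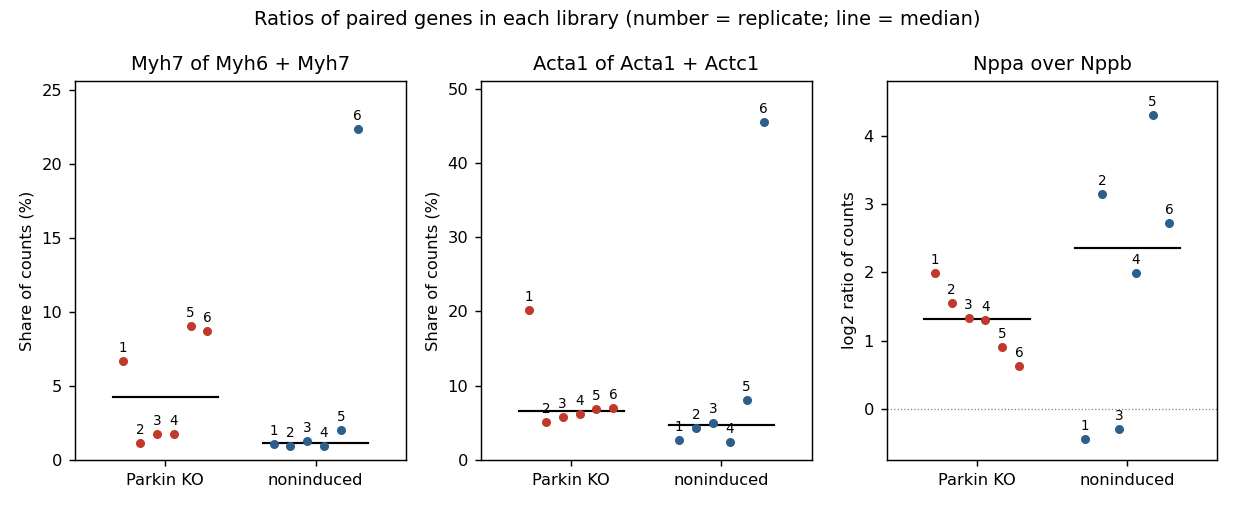
Share of Myh7 in Myh6 plus Myh7 counts (left) and of Acta1 in Acta1 plus Actc1 counts (middle), both in percent, and the log2 ratio of Nppa to Nppb counts (right) in each library, with Parkin KO left of noninduced; points are hearts numbered by replicate and lines are medians. Noninduced 6 stands alone at 22.4% and 45.5% in the myosin and actin panels, and in the right panel the noninduced hearts fall on both sides of the Parkin KO hearts.

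Acta1 showed the widest range of the 6 genes in CPM. On chromosome 8 from 123891769 to 123894751 on the minus strand, it had 3080, 558, 711, 774, 823 and 864 CPM in Parkin KO 1 to 6, against 290, 503, 599, 236, 959 and 9170 CPM in noninduced 1 to 6. Parkin KO 1 and noninduced 6 stood far above the other 10 hearts, among which Parkin KO hearts ran from 558 to 864 CPM and noninduced hearts from 236 to 959 CPM. The log2 fold change was -0.79 ± 0.814 (SE, 95% interval -2.52 to 0.948, edgeR adjusted p = 0.684), and its direction turned to 1.12 without noninduced 6 (adjusted p = 0.311). Limma-voom on the same counts and limma on FPKM also gave the other direction, 0.33 and 0.31 (adjusted p = 0.869 and 0.878).

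Cardiac actin varied little beside the skeletal form. Actc1 lay between 10400 and 12200 CPM in Parkin KO and between 9720 and 11300 CPM in noninduced hearts. Acta1 made up 20.2%, 5.11%, 5.81%, 6.18%, 6.90% and 7.03% of the sum of both in Parkin KO 1 to 6, against 2.69%, 4.27%, 5.04%, 2.37%, 8.13% and 45.5% in noninduced 1 to 6. Nearly equal counts of both actins were thus present in noninduced 6, and between 2.37% and 20.2% of the skeletal form elsewhere. Means were 8.54 ± 5.76% in Parkin KO and 11.3 ± 16.8% in noninduced hearts (SD, n = 6 each), a difference of -2.79 points (exact two-sided permutation p = 0.959, adjusted p = 0.987) that was 4.03 points without noninduced 6 (adjusted p = 0.185). No 50-base window is shared between the transcripts of Acta1 and Actc1. On counts, markers of skeletal muscle were near 0 in every heart. In the deposited FPKM, Myh1 stood at 4.36 to 10.8 in Parkin KO and 2.33 to 7.89 in noninduced hearts. Myh4 stood at 1.92 to 4.56 FPKM in Parkin KO and 1.48 to 4.75 FPKM in noninduced hearts, and Myh2 reached only 0.0583 and 0.0287 FPKM. The 8 skeletal markers, among which are Myh4, Tnnt3 and Mylpf, summed to 2.34 to 3.87 CPM in Parkin KO, against 1.86 to 4.57 CPM in noninduced hearts, with 2.34 CPM in Parkin KO 1, against 2.79 CPM in noninduced 6.

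Ankrd1 was the steadiest of the 6 but for the same hearts. On chromosome 19 from 36111961 to 36120099 on the minus strand, it had 3210, 1060, 929, 1070, 1560 and 1140 CPM in Parkin KO 1 to 6, against 1380, 1130, 1300, 1190, 1700 and 6190 CPM in noninduced 1 to 6. Leaving aside Parkin KO 1 and noninduced 6, the hearts lay from 929 to 1560 CPM in Parkin KO and from 1130 to 1700 CPM in noninduced. The log2 fold change was -0.52 ± 0.438 (SE, 95% interval -1.46 to 0.413, edgeR adjusted p = 0.618), and 0.15 without noninduced 6 (adjusted p = 0.811). Among 15 tested relatives of Ankrd1 and targets of the YAP and SRF pathways, 0 passed, and 4 had an unadjusted p under 0.05, all of them lower in Parkin KO (26.7%, against 5.54% of all tested genes), and the median over the 15 was -0.0958 on the log2 scale. Without the libraries labelled noninduced 1 and 3, 2 were lower (13.3%, against 4.83% of all tested genes) and 1 higher (6.67%, against 2.66%). Of 16 tested without noninduced 1, 2, 3 and 5, 1 was lower (6.25%, against 2.9%). Ctgf, a matricellular target of YAP, averaged 116 ± 39.7 CPM in Parkin KO, against 219 ± 82.1 CPM in noninduced hearts, and Egr1, an immediate-early factor, 35.4 ± 9.5 CPM in Parkin KO, against 57.3 ± 18.7 CPM in noninduced hearts (SD, n = 6 each, edgeR adjusted p = 0.417 for both).

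Gdf15 was close to the lower limit of measurement outside the high hearts. On chromosome 8 from 70629393 to 70632456 on the minus strand, it had 12.2, 1.17, 1.5, 1.58, 1.49 and 1.22 CPM in Parkin KO 1 to 6, against 3.99, 3.22, 3.30, 1.33, 2.25 and 28 CPM in noninduced 1 to 6. Within Parkin KO, replicate 1 stood alone and the other 5 hearts lay within 1.17 to 1.58 CPM, while 5 of the 6 noninduced hearts lay above all of those 5 and noninduced 4 lay among them. The log2 fold change was -1.17 ± 0.782 (SE, 95% interval -2.84 to 0.498, edgeR adjusted p = 0.541). Without Parkin KO 1 it was -2.35 and without noninduced 6 it was 0.18 (adjusted p = 0.296 and 0.898), and without both, a choice made after seeing the data, it was -1.0 (adjusted p = 0.237). The 5 low Parkin KO libraries held 16 to 27 counts each, so their levels rest on few reads. Without the libraries labelled noninduced 1 and 3 the log2 fold changes were -0.79 for Nppb, -1.28 for Acta1, -0.79 for Ankrd1 and -1.49 for Gdf15 (edgeR adjusted p = 0.738 to 0.772). Without noninduced 2 and 5 they were -0.67 for Nppb, 0.08 for Myh7, -1.18 for Acta1, -0.75 for Ankrd1 and -1.55 for Gdf15 (edgeR adjusted p = 0.659 to 0.984).

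Genes of the integrated stress response, which with p53 is known to drive Gdf15, stood lower in Parkin KO hearts more often than higher, though none passed. Of 14 tested genes of that list 0 passed, 7 had an unadjusted p under 0.05, all of them lower in Parkin KO (50%, against 5.54% of all tested genes), and the median log2 fold change was -0.43. Without noninduced 1, 2, 3 and 5 the number at an unadjusted p under 0.05 was 2 of 14 (14.3%, against 2.9% of all tested genes), with a median of -0.395. Atf5, a transcription factor of this response, had 127, 115, 126, 117, 147 and 107 CPM in Parkin KO 1 to 6, against 377, 272, 247, 124, 153 and 222 CPM in noninduced 1 to 6 (log2 fold change -0.91 ± 0.209, SE, edgeR adjusted p = 0.417). Mthfd2, a mitochondrial folate enzyme, averaged 4.15 ± 1.34 CPM in Parkin KO, against 8.45 ± 2.85 CPM in noninduced hearts (SD, n = 6 each, adjusted p = 0.417). For Atf5 the highest hearts were those labelled noninduced 1, 2 and 3, and noninduced 6 was the fourth. Its log2 fold change was -0.66 without the libraries labelled noninduced 1 and 3 and -0.5 without noninduced 1, 2, 3 and 5 (edgeR adjusted p = 0.459 and 0.997). Gdf15 was highest in noninduced 6 and Parkin KO 1, at 28 and 12.2 CPM. Directly below them came noninduced 1, 3 and 2, at 3.99, 3.3 and 3.22 CPM. The top heart thus differed between Gdf15 and Atf5, while noninduced 1, 2 and 3 stood high in both.

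**Figure D4:**
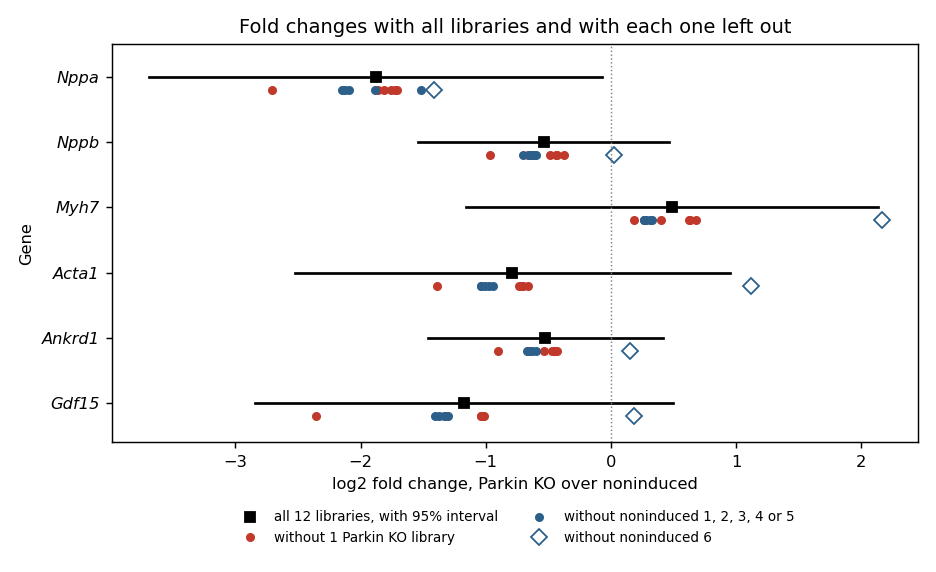
Log2 fold change of each gene, Parkin KO over noninduced, with all 12 libraries (black square and 95% interval) and with 1 library left out (red without a Parkin KO library, blue without noninduced 1 to 5, open diamond without noninduced 6). The open diamond lies on the other side of 0 from the square for Nppb, Acta1, Ankrd1 and Gdf15, at 2.16 for Myh7, and at -1.41 for Nppa.

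Size of departure differed by gene in the 2 high hearts. Against the median of the other 5 hearts of its group, Parkin KO 1 had 8.19 times the level of Gdf15, 6.42 of Nppa, 3.98 of Acta1, 3.83 of Nppb, 3.0 of Ankrd1 and 2.96 of Myh7. Noninduced 6, set against the other 5 noninduced hearts in the same way, had 18.2 times the level of Acta1, 15.3 of Myh7, 9.78 of Nppa, 8.70 of Gdf15, 4.76 of Ankrd1 and 3.74 of Nppb. On counts, contractile genes thus led in noninduced 6, and Gdf15 and Nppa in Parkin KO 1. In the deposited FPKM, Myh7 stood at 2070 in noninduced 6, against 718 to 1210 in the other 5 noninduced hearts, so its lead held on counts only. Parkin KO 1, at 1420 FPKM of Myh7, lay within the other Parkin KO hearts. Fibroblast genes (6 of 6 with a row) summed to 574 to 1140 CPM in Parkin KO, with 975 CPM in replicate 1, and to 653 to 1490 CPM in noninduced hearts, where replicate 6 was the highest, and the part of other cell types in these levels was not tested.

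Other genes of the same programme were also extreme in noninduced 6. Of 20 tested fetal and hypertrophy-associated genes outside the 6, noninduced 6 was the highest library for 10 (50%, against 12.4% of all tested genes), among them Rcan1, Postn, Fhl1, Xirp2 and Ctgf, and of 12 adult counterparts it was the lowest for 7 (58.3%, against 13.7%), Myh6, Atp2a2, Pln, Tnni3, Tnnt2, Ryr2 and Kcnip2. Postn, a matrix protein of activated fibroblasts, was at 110 CPM in Parkin KO 1, with 8.15 to 25.5 CPM in the other 5 Parkin KO hearts, and at 271 CPM in noninduced 6, with 13.9 to 56.4 CPM in the other 5 noninduced hearts. Rcan1, a target and brake of calcineurin, was at 110 CPM in Parkin KO 1, with 54.7 to 88.1 CPM in the other Parkin KO hearts, and at 204 CPM in noninduced 6, with 59.5 to 87.5 CPM in the other noninduced hearts. Atp2a2, the calcium pump of the sarcoplasmic reticulum, was at 7970 to 10700 CPM in Parkin KO hearts, against 6610 CPM in noninduced 6 and 8580 to 11300 CPM in the other noninduced hearts. Genes of this paragraph were picked for naming after their values were seen.

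Between the groups, adult counterparts stood on one side. All 12 tested had a log2 fold change above 0 (100%, against 52% of all tested genes), with a median of 0.13 beside 0.0098 over all genes, 0 passed, and 2 had an unadjusted p under 0.05 and were higher (16.7%, against 5.82% of all tested genes). The count at an unadjusted p was 0 without noninduced 2 and 5 (0%, against 3.62% of all tested genes). It was 1 without noninduced 1 and 3 (8.33%, against 2.66%). Without Parkin KO 1 and noninduced 6, a choice made after seeing the data, 10 of the 12 lay above 0 (83.3%, against 49.8%), with a median of 0.089. Myl3, the ventricular essential light chain, averaged 4768 ± 388 CPM in Parkin KO, against 3784 ± 630 CPM in noninduced hearts, and Pln, the brake of the calcium pump, 1514 ± 97.8 CPM in Parkin KO, against 1228 ± 202 CPM in noninduced hearts (SD, n = 6 each, edgeR adjusted p = 0.424 for both). Of the 20 other fetal and hypertrophy-associated genes, 19 had a log2 fold change below 0 (95%, against 48% of all tested genes, median -0.46), 8 had an unadjusted p under 0.05, all of them lower (40%, against 5.54%), and 0 passed. Without noninduced 2 and 5 the count at an unadjusted p was 5 (25%, against 3.55%). With Parkin KO 1 and noninduced 6 left out, 17 of the 20 lay below 0 (85%, against 50.2%). Among the 8 was Myl4, the atrial and fetal light chain, at -4.18 ± 1.28 (SE, edgeR adjusted p = 0.417), which is itself an atrial marker and stood at 542 and 795 CPM in noninduced 2 and 5. Without those 2 hearts it was -0.94 (adjusted p = 0.779). Among 18 cardiac transcription regulators 0 passed, with Tbx5, a factor of atrial and left ventricular identity, at -0.58 and Tbx20 at -0.22 (adjusted p = 0.424 and 0.439). For Tbx5 it was -0.16 without noninduced 2 and 5 (adjusted p = 0.816). The 6 genes themselves had a median log2 fold change of -0.66.

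**Figure D5:**
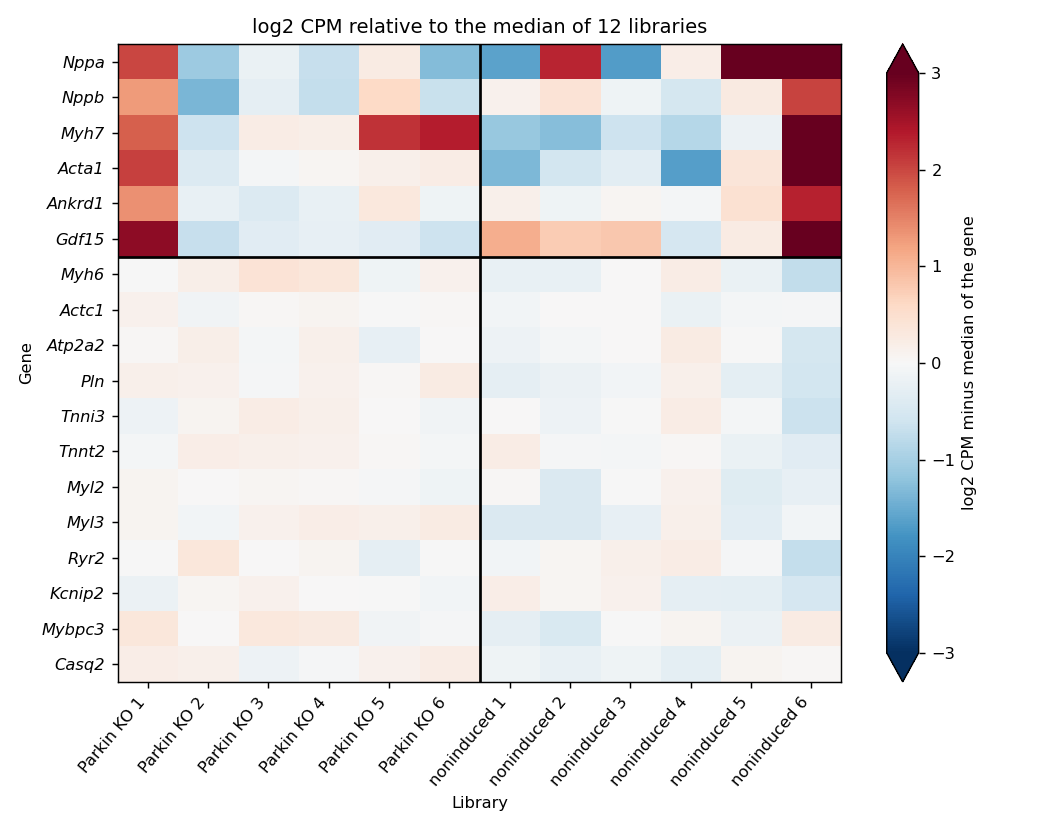
Log2 CPM of the 6 fetal and stress genes (top rows) and 12 adult counterparts (lower rows) in each library, relative to the median of the 12 libraries for that gene, with Parkin KO columns left of noninduced; colours stop at 3 units either way. Noninduced 6 is red in all 6 top rows, from 2.02 for Nppb to 3.89 for Gdf15, and reaches -0.74 for Myh6 below, while Parkin KO 1 reaches 2.69 for Gdf15 in the top rows and lies between -0.17 and 0.34 below.

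Levels can be compared between genes per kilobase of the longest coding transcript. In Parkin KO hearts the median order was Acta1 at 552 CPM per kilobase, Ankrd1 at 547, Nppa at 314, Myh7 at 284, Nppb at 142 and Gdf15 at 0.968, and in noninduced hearts it was Nppa at 1260, Ankrd1 at 663, Acta1 at 381, Nppb at 221, Myh7 at 73.6 and Gdf15 at 2.11. Apart from Gdf15, which lay below all others in both groups, neighbours in each order had overlapping ranges over hearts. Myh6 and Actc1 stood above all of them by median, at 6810 and 7770 CPM per kilobase in Parkin KO and 5330 and 7400 in noninduced hearts, though Acta1 reached 6340 in noninduced 6. The place of Myh7 in these orders depended on the scale. By median of the deposited FPKM, Myh7 was the highest of the 6 genes in Parkin KO, at 1500, with Ankrd1 next at 693. In noninduced hearts Myh7 came directly after Nppa, at 1000 against 1570 FPKM.

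Levels of the 6 genes moved together across hearts, and the correlation of each of the 15 pairs was lower without Parkin KO 1 and noninduced 6. All 15 pairs had a positive Pearson correlation of log2 CPM over the 12 libraries (0.298 to 0.913), of which 11 passed for r and 3 for the rank correlation (permutation tests with 100000 resamples, adjusted over 15 pairs). Myh7 and Acta1 had r = 0.792 and rho = 0.86 (permutation p = 0.00059 and 0.00063, adjusted p = 0.00295 and 0.00945), with r = 0.747 after removal of the 2 hearts of most extreme Myh7. Nppb and Ankrd1 had r = 0.882 and rho = 0.797 (permutation p = 0.0002 and 0.00316, adjusted p = 0.00217 and 0.0237), with r = 0.827 after the like removal, and Nppb and Gdf15 had r = 0.881 and rho = 0.741 (permutation p = 0.00029 and 0.00798, adjusted p = 0.00217 and 0.0399), with r = 0.775. These removals took out noninduced 6 with Parkin KO 6 or Parkin KO 2, and kept Parkin KO 1. Acta1 and Gdf15 had r = 0.778 over all 12 (permutation p = 0.009, adjusted p = 0.0169, rho = 0.322 with p = 0.31 and adjusted p = 0.403) and -0.269 without Parkin KO 1 and noninduced 6, so their relation rested on those 2 hearts. Without Parkin KO 1 and noninduced 6, r of the 15 pairs ran from -0.559 to 0.64. It was 0.64 for Myh7 and Acta1, 0.633 for Nppb and Ankrd1 and 0.596 for Nppb and Gdf15. Within groups, r of Myh7 and Acta1 was 0.504 among Parkin KO and 0.959 among noninduced hearts, and r of Nppb and Ankrd1 was 0.856 among Parkin KO and 0.928 among noninduced hearts.

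Each gene had its own company among all tested genes, by Pearson correlation of log2 CPM over the 12 libraries. Nppa went with Itih2 (r = 0.971), Adamts8 (0.956), Gxylt2 (0.945) and Pam (0.937), the last an enzyme that amidates secreted peptides and had its highest level, 1180 CPM, in noninduced 5. For Pam the correlation was 0.979 without Parkin KO 1 and noninduced 6. Nppb went with Dbn1 (0.957), Aldh18a1 (0.956), Dio2 (0.955) and Tnfrsf12a (0.94), of which Dio2 encodes the enzyme that activates thyroid hormone and reached 8.38 CPM in noninduced 6, beside a median of 0.701 CPM over the 12. Myh7 went with Wisp2 (0.935), Pdk1 (0.931), Suds3 (0.925) and Tbcd (0.925), and for these r stayed between 0.888 and 0.946 without the 2 high hearts. Acta1 went with Star (0.956), Pdlim5 (0.951), Col8a1 (0.948) and Nlrc3 (0.945), Ankrd1 with Hsp90aa1 (0.96), P4ha1 (0.947), Emp1 (0.942) and Tgfb2 (0.941), and Gdf15 with Itga9 (0.957), Cdv3 (0.953), Eif4a1 (0.949) and Ugp2 (0.937). For these 12 companions of Acta1, Ankrd1 and Gdf15, r was lower without Parkin KO 1 and noninduced 6, from 0.679 to 0.844. These 24 genes were the best of 13050 by the same libraries, so the values describe likeness and carry no test.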

How the data were processed

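Polyadenylated RNA from 12 hearts was sequenced as single-end reads without strand, per the labels' protocols. Deposited were a table of whole read counts by gene symbol and a table of FPKM values. Alignment and counting tools were Bowtie2, TopHat2 2.0.10 and HTSeq, with Cufflinks 2.1 and build mm10, per the submitters' processing notes. Control columns were matched to noninduced samples by number. Counts were tested in R 4.3.3 with edgeR 4.0.16 (TMM scaling, filterByExpr, quasi-likelihood F test, group term only, two-sided), with Benjamini-Hochberg adjustment over 13050 genes and a threshold of 0.05. CPM uses TMM-scaled library sizes. Correlations used log2 CPM with a prior count of 2. Standard errors and 95% intervals derive from the F statistic and are approximate. P-values judge differences and correlations against the spread between these samples. Total counts ran from 11610507 to 16884516. From the FPKM test 4 genes were left out, Myh6 among them, whose FPKM was 0 where the same library had over 1000 counts, and so were genes that reached 0.5 FPKM in fewer than 6 libraries. The FPKM test was limma 3.58.1 on log2 of FPKM plus a pseudocount of 1 or 0.1. Alternatives were DESeq2 1.42.0, limma-voom, other size factors, no filter, a sex term, subsets of libraries (for the gene lists and the FPKM shares chosen after seeing the data) and a replicate block. The code was tested on simulated data. Gene positions come from GENCODE (GRCm38), promoter sequences from RefSeq (GRCm38.p6), and all 6 genes matched. The members and lists were chosen with earlier results of these data known. Genes named beyond the 6 are Myh6, Actc1, the 2 of smallest p in each list reported here where none passed, the 4 most correlated with each member, markers of other cell types, and a few said to be picked after their values were seen.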

Additional observations from a re-analysis of the deposited data

Results flagged for a closer look

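Within each group of 6 hearts the highest and lowest value was set against its nearest neighbour as a share of the group's range, with a critical value of 0.625 (Dixon). Of 18 groups examined (6 genes and 3 ratios in 2 conditions) 12 held such a heart, and each of the 12 was Parkin KO 1 or noninduced 6. Chance flags about 1 in 20 groups of normally distributed values. These 18 are not independent, since the genes are correlated and the shares restate them, and CPM is skewed, so the 12 are not set against that rate. Parkin KO 1 stood alone in its group at 1450 CPM of Nppa, 3080 CPM of Acta1, 3210 CPM of Ankrd1, 12.2 CPM of Gdf15 and an Acta1 share of 20.2%. Noninduced 6 stood alone in its group at 614 CPM of Nppb, 6460 CPM of Myh7, 9170 CPM of Acta1, 6190 CPM of Ankrd1, 28 CPM of Gdf15, a Myh7 share of 22.4% and an Acta1 share of 45.5%. The labels tell nothing that sets these 2 hearts apart.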

How the results depend on the processing

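Over 24 alternatives and 144 fits of the 6 genes, 0 passed (lowest adjusted p 0.222, with DESeq2 giving no adjusted p for Acta1, Ankrd1 and Gdf15) and 11 turned direction. Myh7 turned to -0.1697 with a sex term and -0.1692 among female hearts, and Acta1 to 0.3326 with limma-voom, 0.3148 and 0.3163 with FPKM (pseudocount 1 and 0.1) and 0.5132 without Parkin KO 1 and noninduced 6, a choice made after seeing the data. Leaving out 1 library at a time gave log2 fold changes of -2.704 to -1.412 for Nppa, -0.9623 to 0.02217 for Nppb, 0.1825 to 2.164 for Myh7, -1.393 to 1.122 for Acta1, -0.9002 to 0.1495 for Ankrd1 and -2.352 to 0.183 for Gdf15, the turned values being those without noninduced 6. In the same way differences ran from -0.765 to 3.6 points for the Myh7 share, -5.12 to 4.03 points for the Acta1 share, and -1.09 to -0.14 for the log2 ratio of Nppa to Nppb. The Myh7 share difference was -2.08 among female hearts, -1.74 without the libraries labelled noninduced 1 and 3, and -1.57 without noninduced 2 and 5. The Acta1 share difference was 0.233 on the log2 ratio scale and 1.7 without Parkin KO 1 and noninduced 6. The ratio of Nppa to Nppb gave -1.76 without noninduced 1 and 3, where it passed, and 0.292 without noninduced 2 and 5. Correlations turned to -0.145 (Nppa and Myh7), -0.559 (Myh7 and Gdf15) and -0.269 (Acta1 and Gdf15) without Parkin KO 1 and noninduced 6, the last also without the 2 hearts farthest from the median of Acta1, which are the same. Over all tested genes 0 passed with edgeR (1483 at an unadjusted p under 0.05), 10 with DESeq2, 0 with limma-voom, and 1, Esr1, without noninduced 1 and 3. The members at an unadjusted p under 0.05 numbered 0 to 4 over the alternatives. The cause of these shifts was not tested.

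Hearts of equal replicate number showed little shared deviation, which cannot decide whether they shared a litter or a day. Correlations of same-numbered deviations were -0.0991, 0.166, -0.0856, 0.0967, 0.0536 and 0.141 for numbers 1 to 6, and only number 4 matched its own best. With a replicate block 0 members and 0 genes passed, Acta1 turned to 0.3895 and Myh7 stood at 1.175, and the differences of the 3 ratios had exact sign-flip p-values of 0.969, 0.906 and 0.531. Few counts limit Gdf15, and windows shared with Myh6 limit Myh7.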
